A study of Mus musculus with 14 samples.

Results

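Ribosome footprints of mouse embryonic fibroblasts with METTL3 knocked down were compared directly with those of fibroblasts with ABCF1 knocked down. The comparison rests on 4 of the 14 libraries of the series, which are the 2 replicates of METTL3 knockdown and the 2 replicates of ABCF1 knockdown in the Ribo-seq assay, and each difference was taken within the same replicate number. All genes entered it, and 10627 could be tested. The cells were fibroblasts of the C57BL/6J strain grown in serum, the knockdown libraries differ from the scrambled control (Scram, 2 replicates) by the hairpin they received, and all cells were washed and lysed in cycloheximide at 100 µg/ml. The labels give treatment with DMSO or Torin1 for the series as a whole and do not say which of these libraries received DMSO. The labels give neither the number of hairpins or clones behind each knockdown nor the origin of the replicates. They could be repeats of a single culture, and the spread behind each p-value is then technical.

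METTL3 is the catalytic subunit of the complex that writes N6-methyladenosine (m6A) on mRNA, a mark that reader proteins bind and that affects splicing, decay and translation of the transcripts that carry it. ABCF1 is an ATP-binding protein of the ABCF family that associates with ribosomes and with the initiation factor eIF2, and it has been linked to start codon choice and to translation that does not depend on the cap. Ribo-seq sequences the stretches of mRNA that ribosomes protect from nuclease, here fragments of 25 to 35 nt, so the level of a gene depends both on how much of its mRNA there is and on how many ribosomes it carries. RNA-seq of fragments of 40 to 60 nt from the same groups gives the mRNA level alone. In a bulk sample, fewer cells of a kind and less RNA per cell cannot be told apart.

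The footprint libraries hold 2584477 and 2482737 reads for METTL3 knockdown and 5155237 and 2809178 reads for ABCF1 knockdown, as recovered from the values. Replicate 1 files list transcripts from 1 read up and replicate 2 files from 5 reads up. A gene absent from a replicate 2 file thus had fewer than 5 reads there or is listed under another transcript. Replicate 1 lists 1.18 transcripts per gene for METTL3 and 1.22 for ABCF1 knockdown, and replicate 2 lists 1.0 for each. With 1 transcript kept per gene, a replicate 1 level may hold only part of the reads of its gene. Of the tested genes, 8539 were listed in all 4 libraries and 3166 had at least 100 reads in each. Fibroblast markers were abundant, with 15 of 17 listed and summed levels of 6724 and 10082 RPKM in METTL3 knockdown and 8124 and 10850 RPKM in ABCF1 knockdown, while Lum and Fap were not listed. Macrophage and leukocyte markers summed to between 4.57 and 10.0 RPKM with Ptprc, Adgre1 and Itgam not listed, and endothelial markers summed to between 0.90 and 2.04 RPKM with Pecam1 and Cdh5 not listed. Epithelial and keratinocyte markers summed to 131 and 213 RPKM in METTL3 knockdown and to 229 and 286 RPKM in ABCF1 knockdown, with Krt5 not listed, and their part in the results was not tested.

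Both targets were lowest in their own knockdown in each replicate. Levels are given throughout as RPKM, reads scaled by length and by the depth of the library, after scaling the libraries to a common median. The length was taken as that of the coding sequence for footprints and of the whole transcript for RNA-seq. Mettl3 (chr14:52294841-52305128 of GRCm38, minus strand) had 2.24 and 4.82 RPKM in METTL3 knockdown, 11.4 and 17.1 RPKM in ABCF1 knockdown and 18.2 and 12.8 RPKM in Scram. METTL3 knockdown thus held 12.3% and 37.7% of the Scram level of its target, and ABCF1 knockdown held 62.6% and 134% of it. The METTL3 minus ABCF1 difference for Mettl3 on the log2(RPKM + 1) scale was -1.79 (SE 0.35, limma adjusted p = 0.207). Abcf1 (chr17:35956819-35969761, minus strand) had 41.3 and 116 RPKM in METTL3 knockdown, 17.6 and 48.2 RPKM in ABCF1 knockdown and 51.1 and 96.2 RPKM in Scram. ABCF1 knockdown held 34.4% and 50.2% of the Scram level of its own target, and the difference for Abcf1 was 1.22 (SE 0.23, limma adjusted p = 0.194). Replicates differed in level for Abcf1, so its groups overlap unless libraries of the same number are set against each other, where METTL3 knockdown was 2.35 and 2.41 times as high. Neither target passed the test across all genes, although the difference had the same sign in both replicates.

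The sequences around the start codon are shown for the targets and for 8 genes with large differences, since ribosome footprints begin there. They run from 9 bases before the start codon to 6 bases from its first base, in the transcript kept for each gene in GENCODE M21, with the start codon in capitals.
Mettl3: ggagctaggATGtcg
Abcf1: gccgccgcgATGccg
Angptl7: ctgcacaccATGctg
Kcnab1: tgggaagcaATGcaa
Klf2: gtccctgccATGgcg
Fn1: ccactcaagATGctc
Hmga2: ggaggcaggATGagc
Myl7: ccacagatcATGgcc
Serping1: gctgcccagATGgcc
Mfap5: gtagacaatATGctg
Of these 10 genes, Klf2, Myl7 and Serping1 have G directly after the start codon, and Serping1 is the gene without a purine 3 bases before it.

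METTL3 methylates adenosine within short motifs of which GGACT, written here as DNA, is the best known. The first GGACT in the coding sequence is shown for 2 higher and 2 lower genes that have it, with 10 bases on each side and the motif in capitals.
Kcnab1: tgggaaatcaGGACTcagagtttca
Fn1: ccatgatctgGGACTgtacctgcat
Adh7: tcagtcccaaGGACTctaccaagcc
Capg: ttttctctggGGACTcctacctagt
Genes with and without it were found on both sides. Among higher genes, the coding sequence of Kcnab1 holds 4 such motifs and that of Fn1 holds 6, while those of Ctxn1, Cygb and Lbh hold 0. Among lower genes, those of Adh7, Capg and Scrn1 hold 2 each, while those of Hmga2, Myl7 and Serping1 hold 0. The motif was read on the sense strand of the coding sequence, where 76.6% of all tested genes have it, and a match is a description of the letters and not a methylated site.

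Few genes differed by more than the spread between libraries. In a limma fit on the 6 Ribo-seq libraries of Scram and both knockdowns with the replicate number as a block, 5 of 10627 genes passed a Benjamini-Hochberg adjusted p of 0.05 (0.047%), of which 2 were higher (0.0188%) and 3 lower (0.0282%) in METTL3 than in ABCF1 knockdown. At an unadjusted p under 0.05 there were 1108 genes, 529 higher (4.98%) and 579 lower (5.45%). Of the genes that passed the adjusted p of 0.05, Angptl7 was listed in all 4 libraries, and Mfap5, Cbr2 and Mmp23 were each not listed in at least 1 of them. Without the replicate block 0 genes passed, with 250 at an unadjusted p under 0.05. The count was 160 without Scram replicate 1, 23 without Scram replicate 2, 2 without METTL3 replicate 1 and 0 without either METTL3 replicate 2 or ABCF1 replicate 1.

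Angptl7, a secreted protein of the angiopoietin-like family, rose in METTL3 relative to ABCF1 knockdown. Its footprint level was 15.8 and 212 RPKM in METTL3 knockdown, 0.71 and 23.4 RPKM in ABCF1 knockdown and 3.15 and 41.9 RPKM in Scram. Scram lay between the knockdowns in each replicate, and replicate 2 was higher in each group, so METTL3 replicate 1 fell below ABCF1 replicate 2. The difference was 3.21 (SE 0.23, limma adjusted p = 0.0197), with 3.29 in replicate 1, where ABCF1 knockdown had 4 reads, and 3.12 in replicate 2. The gene lies at chr4:148495183-148500460 of GRCm38 on the minus strand.

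Mfap5, a glycoprotein of elastic microfibrils, fell in METTL3 relative to ABCF1 knockdown. It was not listed in either METTL3 library, of which replicate 2 lists only 5 reads or more, and had 55 and 17 reads (20.0 and 12.4 RPKM) in ABCF1 knockdown and 11 and 7 reads in Scram (limma adjusted p = 0.0197). Cbr2 and Mmp23 were picked out after their values were seen, because they passed the test, and each was also missing from a replicate 2 library. Cbr2, a carbonyl reductase, had 0.53 RPKM in METTL3 replicate 1 and was not listed in replicate 2, against 21.1 and 20.1 RPKM in ABCF1 knockdown. Mmp23, a membrane-bound matrix metalloproteinase, went the other way, with 34.2 and 12.5 RPKM in METTL3 knockdown against 2.61 RPKM in ABCF1 replicate 1 and no listing in replicate 2. Both had a limma adjusted p of 0.0482. Neither their groups nor those of Mfap5 overlapped, but these genes were named for their difference in the same libraries. Over all tested genes, both METTL3 libraries lay above both ABCF1 libraries for 11.8% and below them for 11.8%. Of 16 alternatives that tested Cbr2 and Mmp23, Cbr2 was called in 7 and Mmp23 in 6. Among fits that kept both replicates of each group, both calls were lost without the replicate block and without scaling. They were also lost with a pseudocount of 0.1, with no filter and with voom weights. That of Mmp23 was also lost with quantile normalization. Genes not listed were set to 0, and differences against a 0 depend on the pseudocount of 1 and are not given as folds.

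A second description used size instead of a test. At least 2-fold differences in the same direction in both replicates were seen in 56 genes that were higher (0.527% of those tested) and 130 that were lower (1.22%) in METTL3 knockdown. Of these, 17 and 68 had a 0 in at least 1 of the 4 libraries, and METTL3 replicate 1 had fewer reads than ABCF1 replicate 1. Among genes listed in all 4 libraries with a mean of at least 10 RPKM, 28 were higher and 35 lower. These are 0.263% and 0.329% of all 10627 tested genes. Just inside the rule, 2010111I01Rik differed by 1.11 and 1.02 in the 2 replicates and Slc10a7 by -1.41 and -1.04. Just outside it, Hist2h3b differed by -1.13 and -0.99, and Rflnb, at 1.01 and 1.00 after rounding, was under the limit in replicate 2. The genes named in the next paragraphs come from these 28 and 35 and, Angptl7 apart, did not pass the test, so they are given as values.

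**Figure D1:**
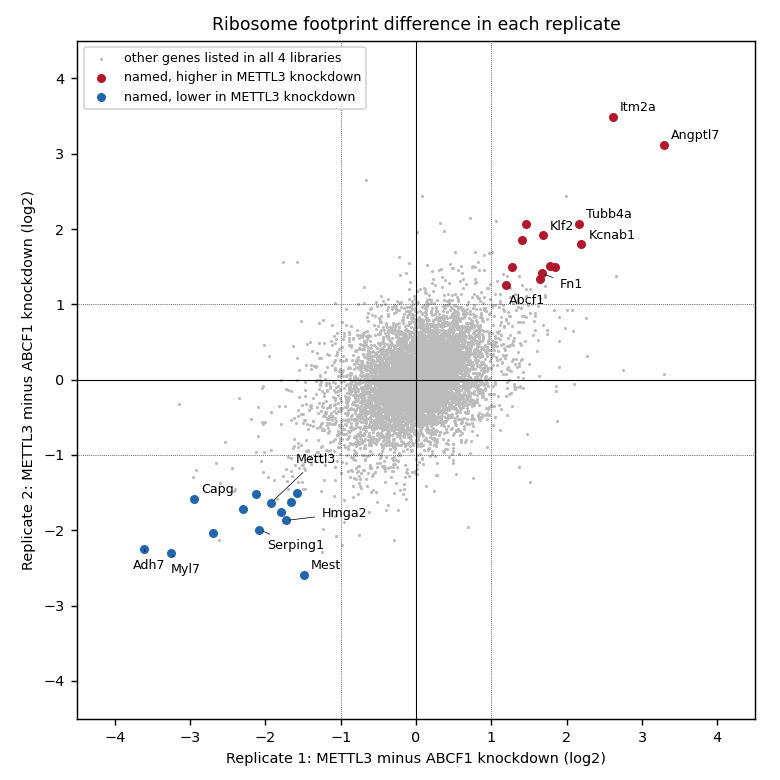
Footprint difference between METTL3 and ABCF1 knockdown on the log2(RPKM + 1) scale in replicate 1 (x axis) and replicate 2 (y axis), 1 point per gene for the 8539 genes listed in all 4 libraries, with named genes in red (higher) and blue (lower) and dotted lines at a 2-fold difference. Named genes lie along the diagonal outside the cloud because the rule asked for a difference in both replicates, and over all points the replicates correlate at r = 0.42.

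Several matrix and secreted proteins were among them, in both directions. Fn1, fibronectin, had 598 and 372 RPKM in METTL3 knockdown, 187 and 139 RPKM in ABCF1 knockdown and 468 and 214 RPKM in Scram. Both METTL3 libraries lay above both ABCF1 libraries, and the difference was 1.54 (SE 0.24, limma adjusted p = 0.154) on 2880 or more reads in each library. Serping1, the plasma inhibitor of complement proteases, had 11.8 and 10.3 RPKM in METTL3 knockdown, 53.4 and 43.7 RPKM in ABCF1 knockdown and 15.9 and 16.2 RPKM in Scram. Its METTL3 level was close to that of Scram and its ABCF1 level was above both, with a difference of -2.04 (SE 0.21, limma adjusted p = 0.079). Fmod, the collagen-binding proteoglycan fibromodulin, had 27.9 and 28.6 RPKM in METTL3 against 99.1 and 99.3 RPKM in ABCF1 knockdown. Smoc2, a secreted calcium-binding matricellular protein, had 13.1 and 10.3 RPKM against 90.3 and 45.2 RPKM. The groups did not overlap for any of these 4 genes, but they were chosen for a large difference in these same libraries. Over all tested genes, both METTL3 libraries lay above both ABCF1 libraries for 11.8% and below them for 11.8%. Fmod and Smoc2 differed by -1.78 (limma adjusted p = 0.194) and -2.37 (limma adjusted p = 0.194).

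Regulators of transcription were also in both lists. Hmga2, an architectural chromatin protein that is abundant in embryonic mesenchyme, had 23.0 and 17.2 RPKM in METTL3 knockdown, 78.6 and 65.5 RPKM in ABCF1 knockdown and 155 and 131 RPKM in Scram. Both knockdowns lay under Scram, METTL3 knockdown at 14.8% and 13.1% of it and ABCF1 knockdown at 50.6% and 49.8%. The difference between the knockdowns was -1.80 (SE 0.20, limma adjusted p = 0.0859). Klf2, a zinc-finger transcription factor, had 76.5 and 78.0 RPKM in METTL3 knockdown, 23.2 and 19.9 RPKM in ABCF1 knockdown and 86.1 and 61.0 RPKM in Scram. Here METTL3 knockdown was near Scram and ABCF1 knockdown was the low group, with a difference of 1.80 (SE 0.22, limma adjusted p = 0.0886). Lbh, a transcription cofactor first described in limb bud and heart, had 1165 and 722 RPKM against 481 and 256 RPKM (1.38, limma adjusted p = 0.207). Prrx2, a homeobox factor of mesenchyme, had 5.24 and 10.2 RPKM against 26.2 and 31.0 RPKM (-1.82, limma adjusted p = 0.331), and its Scram replicates, at 4.00 and 31.0 RPKM, were as far apart as the knockdowns.

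Cytoskeletal genes were found on each side. Myl7, the atrial myosin regulatory light chain, had 23.6 and 35.0 RPKM in METTL3 knockdown, 234 and 177 RPKM in ABCF1 knockdown and 94.7 and 186 RPKM in Scram. Both METTL3 libraries were the lowest of the 6, and the difference was -2.78 (SE 0.34, limma adjusted p = 0.0864). The 9 skeletal and cardiac muscle markers, which do not include Myl7, summed to 165 and 20.0 RPKM in METTL3 and to 54.6 and 25.2 RPKM in ABCF1 knockdown with Myod1 and Ckm not listed, and their part in the Myl7 difference was not tested. Capg, which caps actin filaments, had 4.46 and 14.8 RPKM in METTL3 knockdown, 41.0 and 46.3 RPKM in ABCF1 knockdown and 47.8 and 134 RPKM in Scram (-2.26, limma adjusted p = 0.160). Tubb4a, a beta-tubulin isotype, was higher, with 79.4 and 72.3 RPKM against 17.0 and 16.4 RPKM (2.12, limma adjusted p = 0.189). Tubulin isotypes are close in sequence, and no source says how reads that fit several of them were counted, so the level of Tubb4a is uncertain.

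Enzymes and channel subunits were split in the same way. Kcnab1, a beta subunit of voltage-gated potassium channels, had 113 and 166 RPKM in METTL3 knockdown, 23.9 and 46.8 RPKM in ABCF1 knockdown and 39.0 and 48.9 RPKM in Scram (2.00, SE 0.23, limma adjusted p = 0.0859). METTL3 knockdown was the high group, at 289% and 339% of Scram. Adh7, an alcohol dehydrogenase that oxidises retinol, had 1.39 and 3.73 RPKM, on 4 and 10 reads, against 28.0 and 21.4 RPKM in ABCF1 knockdown (-2.93, limma adjusted p = 0.138). Cygb, the haem protein cytoglobin, had 73.5 and 129 RPKM against 26.1 and 30.1 RPKM (1.76, limma adjusted p = 0.138). Cbr3, a carbonyl reductase related to Cbr2, had 27.6 and 51.3 RPKM against 9.73 and 13.4 RPKM (1.64, limma adjusted p = 0.120), so this member was higher in METTL3 knockdown while Cbr2 was lower. Fads6, of the fatty acid desaturase family, had 58.0 and 62.4 RPKM against 16.1 and 21.3 RPKM (1.65, limma adjusted p = 0.167).

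The remaining named genes code for membrane, signalling and other proteins. Itm2a, an integral membrane protein with a BRICHOS domain, had 7.88 and 46.1 RPKM in METTL3 knockdown against 0.46 and 3.18 RPKM in ABCF1 knockdown, on 2 and 7 reads in the latter, and its Scram replicates were at 0.27 and 0 RPKM. Its difference of 3.05 had a wide error (SE 0.61, limma adjusted p = 0.207). Ctxn1, the small membrane protein cortexin, and Lingo1, a leucine-rich repeat receptor component of neurons, differed by 1.67 and 1.49. Mest, an imprinted gene of the alpha/beta hydrolase fold, had 98.9 and 53.8 RPKM against 280 and 329 RPKM, a difference of -2.04 (limma adjusted p = 0.149). Scrn1, a secernin, had 11.3 and 17.9 RPKM against 59.5 and 61.0 RPKM, a difference of -2.01 (limma adjusted p = 0.0859). Cab39l, a scaffold of the LKB1 kinase complex, and Tank, an adaptor of TRAF and TBK1 signalling, differed by -1.64 and -1.54. Tank overlapped between groups because its level was higher in replicate 2 in all groups (2.03 and 13.4 against 8.03 and 40.1 RPKM).

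Genes listed in both libraries of 1 knockdown and in neither of the other numbered 17 for ABCF1 knockdown and 1 for METTL3 knockdown, whose replicate 1 held fewer reads than ABCF1 replicate 1. Besides Mfap5 the 17 included Ncald, a neuronal calcium sensor, with 38 and 14 reads in ABCF1 knockdown, and Pgf, placental growth factor, with 17 and 10 reads. Both were also listed in Scram, at 5.85 and 15.1 RPKM for Ncald and at 0.45 and 3.80 RPKM for Pgf. The gene listed in both METTL3 libraries and in neither ABCF1 library was Prcd (chr11:116653855-116668389, plus strand), at 1.09 and 23.5 RPKM, and it was also listed in Scram replicate 2 at 3.63 RPKM. Its first bases overlap Cygb (chr11:116645595-116654313, minus strand), whose footprints were also higher. No source says whether the counting used strand, so reads of the 2 genes may not be separable. The transcript kept for Prcd has no coding sequence in GENCODE M21, so its read numbers could not be recovered.

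**Figure D2:**
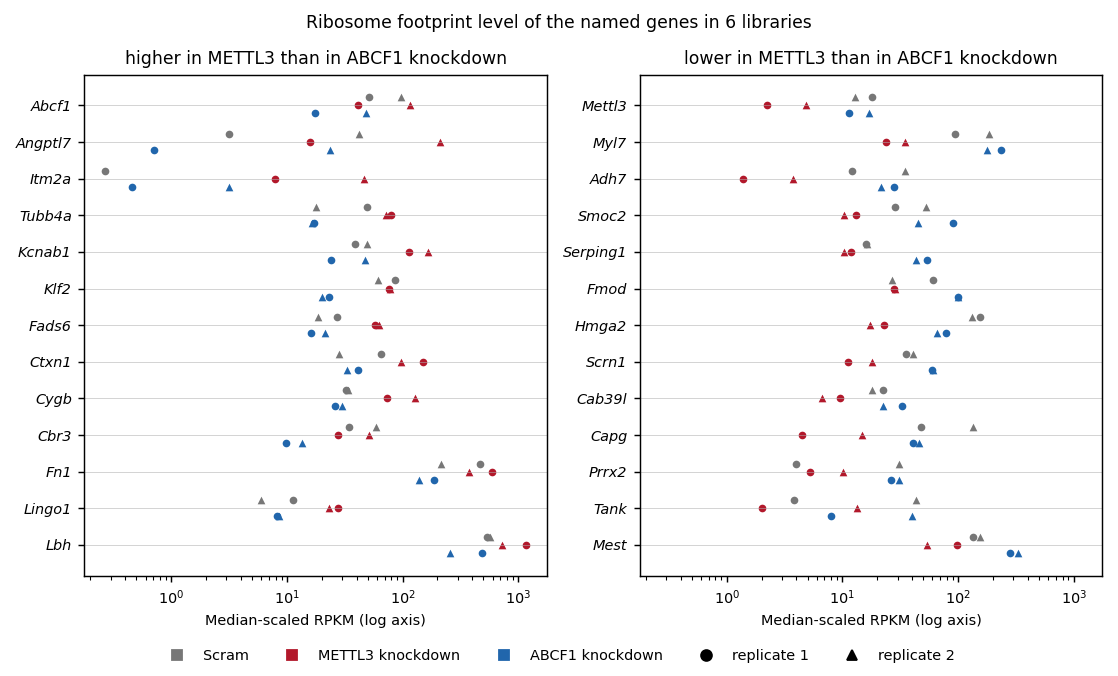
Median-scaled footprint level in RPKM (log axis) of the 26 named genes listed in all 4 knockdown libraries, with grey for Scram, red for METTL3 knockdown and blue for ABCF1 knockdown, circles for replicate 1 and triangles for replicate 2 (Itm2a in Scram replicate 2 is at 0 and not drawn). Red and blue symbols of the same shape are apart in every row, which, the targets aside, the choice of genes asked for. The grey symbols lie near blue for Kcnab1, near red for Klf2 and above both for Hmga2.

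The Scram libraries show which knockdown lay nearer to the control for each gene. They were not used to choose these genes. Of the 28 higher genes, 13 had a Scram level nearer to ABCF1 knockdown in both replicates (Angptl7, Kcnab1, Cygb, Gas6 and Gnai1 among them) and 7 nearer to METTL3 knockdown (Abcf1, Cbr3, Cyp1b1, Ghdc, Klf2, Rnf44 and Snn). For 7 genes, Fn1, Timp3 and Tubb4a among them, the nearer knockdown differed between replicates, and Itm2a was not listed in 1 Scram library. Of the 35 lower genes, 16 were nearer to ABCF1 knockdown, including Hmga2, Myl7, Capg, Adh7, Osr1 and Acta2, the smooth muscle actin. Another 5 were nearer to METTL3 knockdown, namely Serping1, Serpinf1, Wnt10a, Asic3 and Hacd4, and 14 differed between replicates. Nearness is by the log2 level and carries no test. The nearer knockdown can itself differ from Scram, as for Hmga2, where ABCF1 knockdown held 50.6% and 49.8% of the Scram level.

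The 2 replicates gave the same picture only in part. Across the 8539 genes listed in all 4 libraries the differences of replicate 1 and replicate 2 correlated at r = 0.42, and 62.6% of genes had the same sign. Across the 3166 genes with at least 100 reads in each library r was 0.46 and 64.4% had the same sign. Genes are not independent of each other, and the 2 replicate differences share no library. In both replicates 32.7% of genes were higher and 29.8% lower in METTL3 knockdown. The median difference was 0.01, and 90% of genes lay between -0.68 and 0.65. Both METTL3 libraries lay above both ABCF1 libraries for 11.8% of tested genes and below them for 11.8%.

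The RNA-seq libraries of the same groups were read for the same contrast, since the choice of genes did not use them. In RNA-seq 0 of 10192 tested genes passed (0%) by limma with the same block, with 662 higher (6.5%) and 446 lower (4.38%) at an unadjusted p under 0.05 and a lowest adjusted p of 0.388. Without ABCF1 replicate 1 of RNA-seq the count was 259. Of the 28 genes that were higher in footprints, 24 were listed in all 4 RNA-seq libraries, 21 of them were higher in both RNA replicates and 1 was lower, beside 36.4% of all listed genes that were higher in both. Of the 35 lower genes, 25 were listed, 23 were lower in both RNA replicates and 0 higher, beside 25.4% of all listed genes that were lower in both. The median RNA difference was 1.14 for the higher genes and -1.05 for the lower genes, and the median footprint difference was 1.40 and -1.53. These genes were chosen by the size of their footprint difference, and the pseudocount of 1 shrinks differences more at low RPKM. The gap between these medians is therefore not a measure of translation. Across the 7352 genes listed in all libraries of both assays, footprint and RNA differences correlated at r = 0.52 and 67.0% had the same sign.

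Single genes varied in how close the assays were. Angptl7 had 11.1 and 21.9 RPKM of RNA in METTL3 knockdown against 0.75 and 2.45 RPKM in ABCF1 knockdown, a difference of 2.76 beside 3.21 in footprints. Kcnab1 differed by 1.84 in RNA and 2.00 in footprints, and Lbh by 1.38 in each. Fn1 had 1180 and 665 RPKM of RNA in METTL3 knockdown and 533 and 353 RPKM in ABCF1 knockdown, a difference of 1.03 beside 1.54. For these genes the RNA and the footprints lay on the same side in both replicates. Hmga2 had 11.9 and 5.31 RPKM of RNA against 23.2 and 15.0 RPKM, a difference of -1.12 beside -1.80 in footprints. Myl7 was the named gene listed throughout with the widest gap, at -0.71 in RNA, with -1.42 and -0.01 in its replicates on 11 to 52 reads, beside -2.78 in footprints. Gaps were also seen for Cab39l, at -0.55 in RNA beside -1.64 in footprints, and Mest, at -0.96 beside -2.04. Lingo1 differed by 0.64 in RNA beside 1.49, with 1.58 and -0.29 in its RNA replicates. The targets differed in RNA as in footprints, Mettl3 by -1.21 and Abcf1 by 1.14. No difference between the assays was tested, and, the targets apart, these genes were chosen by their footprints and not by their RNA.

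**Figure D3:**
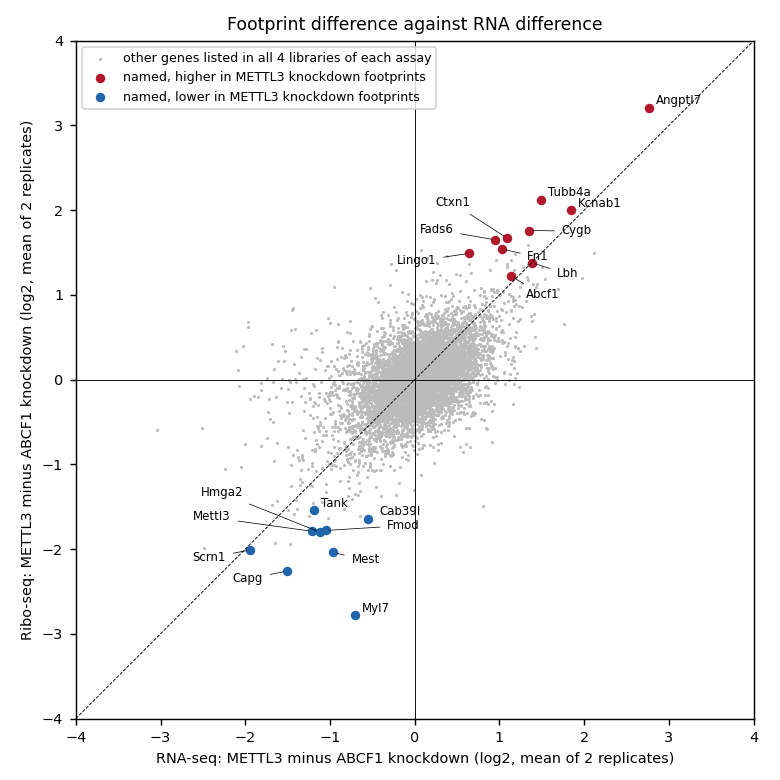
METTL3 minus ABCF1 difference in RNA-seq (x axis) and in Ribo-seq (y axis), each the mean of 2 replicates on the log2(RPKM + 1) scale, for the 7352 genes listed in all 4 knockdown libraries of both assays, with named genes in red (higher footprints) and blue (lower) and a dashed line of equality. The coloured genes, which are the targets and those taken by size and leave out list members, have the same sign in both assays, Angptl7 lies at 2.76 and 3.21, and Myl7 lies farthest under the line at -0.71 and -2.78.

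Among the genes of the 2 targeted pathways that were listed in all 4 libraries, the targets had the largest differences. Of 20 tested members of the m6A list (writer complex, erasers and readers), 0 passed by limma, beside 0.047% of all tested genes. At an unadjusted p under 0.05 there were 3 lower and 0 higher members, beside 5.45% lower and 4.98% higher over all tested genes. The 3 members were Mettl3 and the readers Igf2bp1 and Igf2bp3, which bind methylated mRNA and stabilise it. Igf2bp1 had 29.2 and 30.5 RPKM in METTL3 knockdown, 50.7 and 50.8 RPKM in ABCF1 knockdown and 51.5 and 39.0 RPKM in Scram, a difference of -0.75 (SE 0.22, limma adjusted p = 0.331). Its groups did not overlap, and 11.8% of all tested genes likewise had both METTL3 libraries below both ABCF1 libraries. The RNA of Igf2bp1 differed by 0.04. Of the writer subunits, Wtap differed by 0.34 and Virma by -0.32, the demethylases Fto and Alkbh5 by -0.16 and -0.11, and the reader Ythdf2 by -0.25. In the ABCF family, whose members bind ribosomes, Abcf2 and Abcf3 differed by -0.21 and -0.23 and the ribosome recycling factor Abce1 by -0.31, none of which passed.

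Of 39 gene lists, those described here are the 8 with the largest absolute median among lists with at least 10 members listed in all 4 libraries, a minimum set after the values were seen. Each median is set beside 0.01 over all genes, and each count beside 32.7% of all genes higher and 29.8% lower in both replicates. No tested member of these 8 lists passed by limma. The largest absolute median was that of glycolysis and hypoxia genes at -0.33 over 19 genes, of which 11 were lower and 2 higher in both replicates. Ndrg1, a hypoxia-induced gene, had 44.4 and 64.1 RPKM in METTL3 against 105 and 102 RPKM in ABCF1 knockdown (-0.94). Hif1a, the oxygen-regulated transcription factor, had 2.48 and 44.3 against 6.68 and 79.7 RPKM (-0.99), and 2.46 and 70.7 RPKM in Scram. Its replicate 1 level was low in each group, on 16 reads in METTL3 knockdown. The RNA of Hif1a differed by 0.23, with 0.73 and -0.27 in the replicates. The list median was -0.42 in replicate 1 and -0.07 in replicate 2, and it was -0.04 without ABCF1 replicate 1, -0.09 without METTL3 replicate 1 and -0.51 without ABCF1 replicate 2.

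Lists of cell surface and growth genes also had medians under 0. Integrin subunits had a median of -0.26 over 10 genes, with 6 lower and 2 higher in both replicates, and Itga6 had 7.62 and 8.71 RPKM against 25.5 and 16.9 RPKM (-1.25). That median was -0.08 when all transcripts of a gene were summed, and between -0.15 and -0.16 without METTL3 replicate 1, METTL3 replicate 2 or ABCF1 replicate 1. The list of Hmga and growth regulators had a median of -0.25 over 17 genes, with 10 lower and 5 higher. E2f5, a cell cycle transcription factor, differed by -1.09, while Mycn and Cdk6, which drive proliferation, were on the other side at 1.07 and 0.62. Collagen modifying enzymes had a median of -0.22 over 17 genes, with 10 lower and 1 higher, and it was -0.06 without METTL3 replicate 1, -0.41 without METTL3 replicate 2 and -0.34 without ABCF1 replicate 2. Adamts2, which trims the N-terminal propeptide of collagen, differed by -1.52, Plod2, a lysyl hydroxylase, by -0.76, and Loxl1, a lysyl oxidase, by 0.63.

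Both lists tied to making ribosomes had medians above 0. Mitochondrial ribosomal proteins had a median of 0.20 over 70 genes, with 39 (55.7%) higher and 12 (17.1%) lower in both replicates, and the same median of 0.20 in RNA. Mrpl38 had 213 and 168 RPKM against 144 and 94.4 RPKM (0.69), and Mrps7 had 486 and 191 RPKM against 246 and 136 RPKM (0.73). That median was 0.13 without METTL3 replicate 2, and it was 0.12 without scaling of the libraries. Ribosome biogenesis and nucleolar genes had a median of 0.16 over 47 genes, with 23 higher and 8 lower, and 0.44 in RNA. Utp14a and Utp20, of the small subunit processome, differed by 0.80 and 0.74. The median of this list was 0.00 without METTL3 replicate 2, 0.01 without ABCF1 replicate 1 and 0.28 without METTL3 replicate 1.

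The other 2 lists depended on the library. ATF4 targets, genes of the amino acid and stress response, had a median of -0.19 over 27 genes, with 12 lower and 4 higher, but -0.31 in replicate 1 and 0.06 in replicate 2. It was 0.11 without ABCF1 replicate 1 and -0.49 without ABCF1 replicate 2, and in RNA the list median was 0.41. Psat1, of serine synthesis, had 382 and 555 RPKM against 722 and 686 RPKM (-0.61). NF-kB inflammatory genes had a median of -0.19 over 15 genes, with 0.18 in replicate 1 and -0.49 in replicate 2. It was 0.36 without METTL3 replicate 2 and -0.59 without METTL3 replicate 1, and Vcam1, an adhesion molecule, was the member with the lowest p at -1.01 (limma adjusted p = 0.244). Of the 8 lists, these 2 had medians of opposite sign in the 2 replicates.

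**Figure D4:**
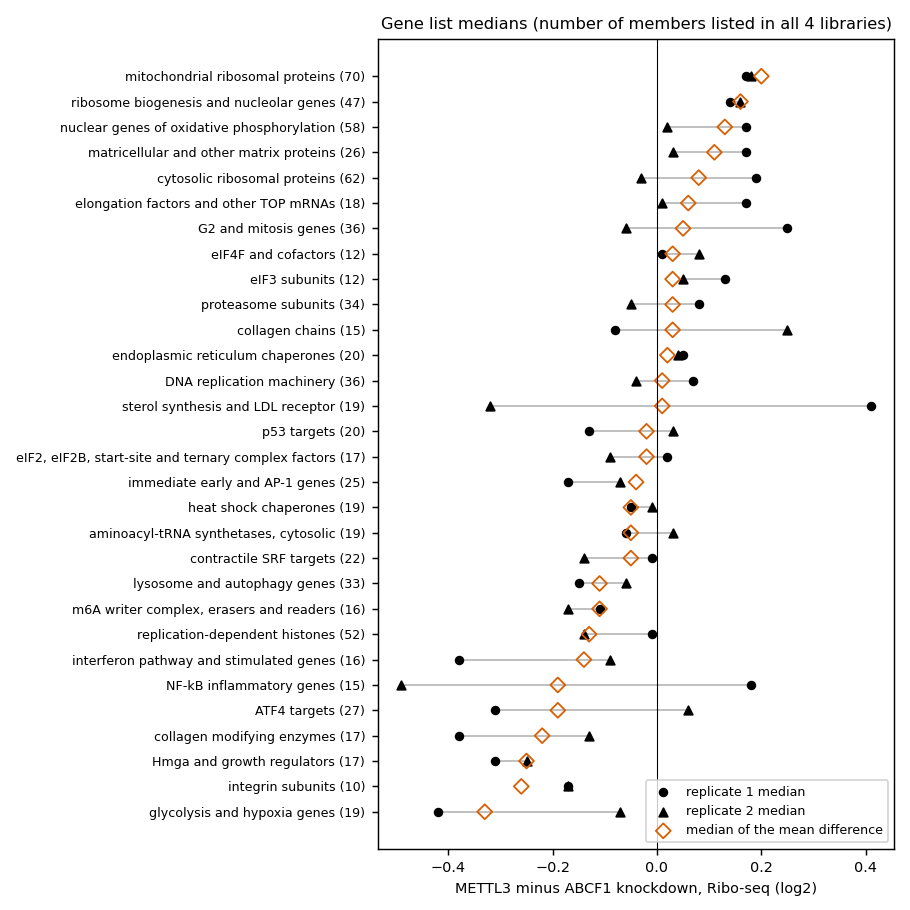
Median METTL3 minus ABCF1 footprint difference on the log2(RPKM + 1) scale for gene lists with at least 10 members listed in all 4 libraries (number in brackets), with circles for replicate 1, triangles for replicate 2, a grey line joining them and diamonds for the median of the mean difference. Mitochondrial ribosomal proteins have 0.17 and 0.18 in the 2 replicates, while sterol synthesis and LDL receptor genes have 0.41 and -0.32.

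Sequence features of the 28 higher and 35 lower genes were set beside those of all tested genes, as a description. A purine stood 3 bases before the start codon in 22 of 28 higher genes (78.6%) and in 26 of 33 lower genes with enough sequence (78.8%), beside 86.5% of all genes. G followed the start codon in 10 (35.7%) and 13 (39.4%) of them, beside 53.6%. Both groups were under the share of all genes on either position, but these shares rest on 28 and 33 genes and no difference was tested. The median 5' untranslated region was 224 nt in the higher, 210 nt in the lower and 166 nt in all genes, and the median coding sequence was 1252, 1131 and 1362 nt. GGACT was present in the coding sequence of 71.4% of the higher and 68.6% of the lower genes, beside 76.6%. Presence depends on length. The median number per kilobase of coding sequence was 0.87 in the higher, 0.80 in the lower and 1.06 in all genes. Per kilobase of whole transcript it was 0.90, 1.04 and 1.05. Across 8518 genes the difference correlated with GGACT per kilobase of coding sequence at a Spearman rho of 0.02, and with coding GC content at 0.16, which was 0.02 in replicate 1 and 0.24 in replicate 2.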

How the data were processed

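The authors deposited RPKM per Ensembl transcript. The submitters' processing notes name cutadapt, Bowtie and GRCm38, and versions, annotation, strand use and the handling of reads that map more than once are not given in these sources. Of 22402 transcripts in the 12 Scram and knockdown files, 22305 matched GENCODE M21. Reads were recovered from RPKM times length, which was whole to within 0.02 for at least 98.7% of footprint values and 80.5% of RNA-seq values. The knockdown RNA-seq libraries held 1342760 to 3154010 reads.

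The transcript listed in most libraries stood for its gene. Tested genes were listed in at least 3 of an assay's 6 libraries with a mean of at least 1 RPKM. After scaling to a common median, log2(RPKM + 1) was fitted with limma 3.58.1 in R 4.3.3 (eBayes with trend) on group and replicate number, leaving 2 residual degrees of freedom. The replicate number was a term because the comparison is made within it. Deviations from group means correlated between libraries of the same number at 0.94 to 0.96 for footprints and 0.87 to 0.92 for RNA. The listing rules of replicates 1 and 2 are part of this correlation, and no source ties a number to a culture or day. Adjusted p-values are Benjamini-Hochberg over all tested genes.

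Genes named are both targets, 12 per direction that passed while listed in all 4 libraries or, to fill up, were at least 2-fold different in both replicates with a mean of at least 10 RPKM (ranked by the smaller replicate difference), up to 3 per direction listed in 1 knockdown only, and low-p members of the described lists. The members, lists and tests were chosen with earlier results of these data known. The code was tested on simulated data. Alternatives changed the block, pseudocount (0.1 and 5), filter, scaling, transcript choice and libraries, and limma with voom weights on recovered reads was added after seeing the data. Torin1 libraries were not used here, and 1 gene that passed is not reported here.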

Additional observations from a re-analysis of the deposited data

How the results depend on the processing

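The 5 genes called in footprints became 0 without the replicate block, 0 with a pseudocount of 0.1, 10 with a pseudocount of 5, 0 with no filter, 12 at a mean of at least 5 RPKM, 13 for genes listed in all 6 libraries, 2 without scaling, 3 with quantile normalization, 14 with transcripts summed, 13 with only the 4 libraries compared and 2 with voom weights. Leaving out 1 library gave 0 to 160 calls, with the lone library of a group assumed to vary like the others. The 186 genes at least 2-fold different in both replicates became 284 and 61 with pseudocounts of 0.1 and 5, 106 at a mean of at least 5 RPKM and 100 for genes listed in all 6 libraries, where 40.0% were higher, beside 30.1%. RNA-seq gave 0 calls under its alternatives, the fit without the block included, except 259 without ABCF1 replicate 1, a range of 0 to 259 over left-out libraries. The named genes were chosen for their direction, so their sign says nothing of stability. Angptl7 was called in 10 of 17 alternatives, Mfap5 in 10 of 16 that tested it, Cbr2 in 7 and Mmp23 in 6 of 16, Myl7 in 8, Kcnab1 and Serping1 in 7, and Hmga2 and Scrn1 in 6 of 17. The causes of these changes were not tested, and a filter or an omission also leaves fewer genes or libraries. Small differences may have gone undetected, and what limits the precision was not tested. The replicate differences correlated at r = 0.42 for genes listed in all 4 libraries. For genes with at least 100 reads in each library r was 0.46.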
